A study of Mus musculus with 18 samples.

Results

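The 8 genes Smtnl2, Rasl11a, Narf, Dhrs3, Prr15l, Mkx, H1f0 and Mab21l3 were among those with the largest drop in mRNA level when kidney tubule cells met fluid flow for 3 h. They were picked by name, from 49845 gene names per library, for large falls in at least 1 of 3 cell lines. All flow values of these genes are therefore a description and carry no test. The cells were IMCD3, an established mouse cell line of inner medullary collecting duct origin, with the strain background labelled Tg(SV40E)bri/7 and passage 10 to 15. Wild-type cells, an Ift140 knockout line and a Dync2h1 knockout line were each kept static or put for 3 h, in microslide chambers, under a shear stress of 0.7 dyne/cm2, which gave 6 groups of 3 libraries of total RNA. The labels speak of cells with or without cilia. They do not say how many clones stand for a knockout or whether the replicates of a group were separate cultures, so every p-value measures the spread between these 18 samples only. Levels are the deposited TPM, transcript shares corrected for gene length and brought to a fixed sum, rescaled between libraries by a trimmed mean of log ratios.

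Tubule cells feel the urine that streams past them through their primary cilium, a single antenna on the apical surface, and through other parts of the cell surface and cytoskeleton. Ift140 is a subunit of the IFT-A complex and Dync2h1 is the heavy chain of dynein-2, and both serve the transport of cargo from the tip of the cilium back to the cell body. The level of an mRNA reflects its synthesis and its decay, which total RNA does not separate. The 8 genes belong to different families. Smtnl2 encodes a smoothelin-like protein with a calponin homology domain, of a family that associates with actin. Rasl11a encodes a small GTPase of the RAS-like group that has been tied to ribosomal RNA synthesis. Narf encodes a nuclear protein that binds the prenylated tail of prelamin A. H1f0 encodes the replacement linker histone H1.0, which accumulates in differentiated and resting cells. Dhrs3 encodes a retinal reductase that turns retinal back into retinol and so limits retinoic acid. Mkx encodes Mohawk, a homeobox transcription factor of the TALE class known from tendon. Mab21l3 belongs to the Mab-21 family and has been linked to the fate of multiciliated cells. Prr15l encodes a proline-rich protein whose role is little known.

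Ift140 stood at 6.26 to 7.45 TPM in static and at 7.65, 8.53 and 15.4 TPM in flow libraries of the Ift140 knockout line, against 15.1 to 19.5 TPM in wild-type libraries. Dync2h1 stood at 7.07 to 15.4 TPM in its knockout line, against 28.1 to 45.4 TPM in wild type. Replicate 3 of the Ift140 knockout under flow stood apart from the others by its Ift140 level and by a low correlation with its replicates, so the flow values of the Ift140 knockout are also given without it. Of 14 markers of kidney tubule epithelium, 9 were above 1 TPM in all 18 libraries, while the collecting duct genes Aqp2, Aqp3, Avpr2, Scnn1a and Gata3 were below 1 TPM in every library. The summed level of these 14 markers was 2795 to 2935 TPM in static and 3883 to 4037 TPM in flow wild-type libraries, 3590 to 3893 and 4048 to 4818 TPM in the Ift140 knockout, and 3544 to 3649 and 4594 to 4807 TPM in the Dync2h1 knockout. Of 8 fibroblast and tendon markers only Scx was above 1 TPM in all libraries and Lum was at 0, and their sum, nearly all Scx, was 187 to 199 TPM in static and 142 to 183 TPM in flow wild-type libraries. In the knockout lines that sum was 187 to 203 and 132 to 166 TPM for Ift140, and 145 to 157 and 89.8 to 110 TPM for Dync2h1. The 5 endothelial markers summed to at most 1.0 TPM, and of the 5 leukocyte markers only Cd68 was above 1 TPM in all libraries, with Cd3e at 0. The part of these shifts in the values below was not tested, and in bulk RNA fewer cells of a type and less RNA per cell cannot be told apart.

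In each of the 3 lines, the 3 flow libraries lay below the 3 static libraries for 8 of 8 genes. Over all 16718 genes tested, flow libraries lay below static libraries in the same way for 20.5% in wild type, 13.4% in the Ift140 knockout and 18.3% in the Dync2h1 knockout. After 3 h of flow, between 19.9% and 38.7% of the static level was left in wild type, with a median of 25.9%. The share left ran from 14.1% to 57.2% in the Ift140 knockout (median 30.96%) and from 15.6% to 46.9% in the Dync2h1 knockout (median 23.3%). The median difference between flow and static on the log2(TPM + 1) scale was -1.81 in wild type, -1.69 in the Ift140 knockout and -1.83 in the Dync2h1 knockout, against -0.01, 0.01 and 0.01 over all genes tested. Without the library that stood apart the Ift140 knockout median was -1.52. Among the 11577 genes with a mean of at least 5 TPM, ranked from the largest fall, 7 of the 8 held ranks 13 to 25 in wild type and Mab21l3 held rank 61. Most names ahead of them were predicted genes or small nucleolar RNAs. The protein-coding gene Ankrd37 held rank 6 with -3.02, and Slc13a2os, just behind Prr15l, held rank 18 with -1.71. The replicates spread more widely under flow than at rest in relative terms, with a median coefficient of variation of 21.5% in the 24 flow groups and 7.998% in the 24 static groups of the 8 genes.

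**Figure D1:**
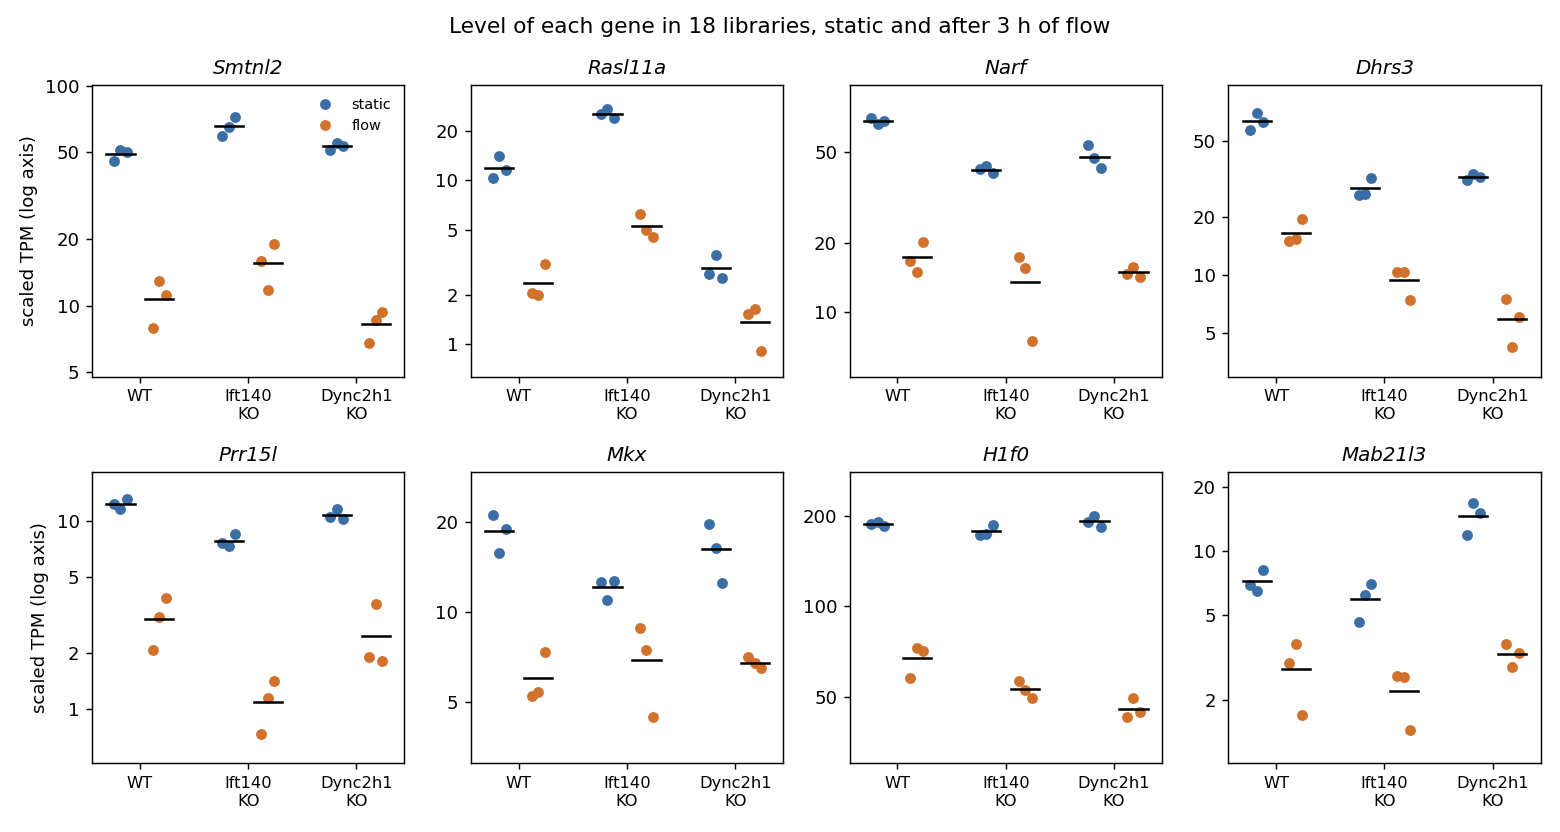
Level of each gene in scaled TPM (log axis) in static and flow libraries of the 3 lines. Dots are the 3 libraries of a group and black lines are group means. In every panel and line the flow dots lie below the static dots, from H1f0 near 188 TPM in static wild-type cells down to Mab21l3 near 7.20 TPM.

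Smtnl2, the smoothelin-like gene (chr11:72389164-72411713, minus strand, GRCm38, 8 exons), had the largest drop of the 8 in wild type on the log2(TPM + 1) scale, while by the ratio of mean TPM that of Rasl11a was larger. In replicate order, it stood at 45.5, 51.2 and 49.9 TPM in the wild-type libraries at rest and at 7.95, 12.9 and 11.2 TPM under flow. In the Ift140 knockout it stood at 59.1, 64.6 and 71.9 TPM static and at 16.0, 11.8 and 19.0 TPM under flow. In the Dync2h1 knockout the values were 50.9, 54.8 and 53.2 TPM static and 6.80, 8.61 and 9.41 TPM under flow. No flow library of any line came near the static range, and the lowest mean under flow was that of the Dync2h1 knockout, whose libraries overlapped with those of wild type. The log2 differences were -2.11 in wild type, -2.02 in the Ift140 knockout and -2.55 in the Dync2h1 knockout (SE 0.17 each), and 21.9%, 23.9% and 15.6% of the static level was left. Without the library that stood apart the Ift140 knockout kept 21.3%. The gene held ranks 13, 10 and 11 in the 3 lines, the narrowest range of ranks among the 8.

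Rasl11a, the RAS-like GTPase gene (chr5:146845071-146847726, plus strand, 4 exons), had the most uneven levels between lines. Static wild-type libraries held 10.3, 14.1 and 11.5 TPM and flow libraries 2.06, 1.99 and 3.07 TPM. The Ift140 knockout held 25.3, 27.2 and 24.01 TPM static and 6.23, 4.96 and 4.53 TPM under flow. The Dync2h1 knockout held 2.69, 3.49 and 2.53 TPM static and 1.53, 1.65 and 0.908 TPM under flow. Static levels of the Dync2h1 knockout thus lay within the range that wild-type cells showed under flow or just above it. The share left was 19.9% in wild type, 20.6% in the Ift140 knockout (22.0% without the library that stood apart) and 46.9% in the Dync2h1 knockout. On the log2 scale the differences were -1.95, -2.09 and -0.73 (SE 0.17 each). From the ratio of mean TPM the corresponding values were -2.33, -2.28 and -1.09, so the added 1 TPM makes the drop of this low-level gene look smaller in every line. The gene ranked 14 and 8 in the first pair of lines and 296 in the Dync2h1 knockout.

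Narf, the prelamin A binding gene (chr11:121237253-121255856, plus strand, 11 exons), stood at 70.2, 66.1 and 68.3 TPM in the wild-type libraries at rest and at 16.8, 15.1 and 20.3 TPM under flow. In the Ift140 knockout it stood at 42.2, 43.4 and 40.4 TPM static and at 17.4, 15.7 and 7.49 TPM under flow. In the Dync2h1 knockout the static values were 54.0, 47.0 and 42.7 TPM and the flow values 14.8, 15.8 and 14.3 TPM. At rest wild type lay above both knockouts, which overlapped with each other. Under flow all but 1 of the 9 libraries lay between 14.3 and 20.3 TPM. The exception was replicate 3 of the Ift140 knockout, the library that stood apart. The log2 differences were -1.92, -1.64 and -1.61 (SE 0.20 each), with 25.5%, 32.2% and 31.2% of the static level left. Without that library 39.4% was left in the Ift140 knockout and its log2 difference was -1.30.

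H1f0, the replacement linker histone gene (chr15:79028450-79030504, plus strand, a single exon), was the most abundant of the 8 and had the smallest standard error. Static libraries held 188, 190.3 and 185 TPM in wild type, and 57.9, 72.7 and 71.2 TPM remained under flow. The Ift140 knockout held 173, 174 and 186 TPM static and 56.4, 52.7 and 49.6 TPM under flow. The Dync2h1 knockout held 190.3, 200.5 and 184 TPM static and 42.9, 49.5 and 44.7 TPM under flow. The static ranges of the 3 lines overlapped, whereas under flow the order was wild type, Ift140 knockout and Dync2h1 knockout with no overlap between neighbours. Log2 differences were -1.47, -1.73 and -2.05 (SE 0.08 each), and 35.8%, 29.7% and 23.8% of the static level was left. Without the library that stood apart the Ift140 knockout kept 30.7%. An antisense gene, Gm49544, overlaps H1f0, and whether the counting used strand is not given in the sources used here.

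The 250 bases before the transcription start of 3 of these genes are shown because Narf and Smtnl2 hold 4 or more copies of a motif searched and because Rasl11a is the gene whose level differed most between the lines. They come from the RefSeq table on GRCm38.p6, read 5′ to 3′ on the strand of the gene, and capitals mark CCAAT or GGGCGG on either strand. The windows are chr11:121236986-121237235 (plus strand) for Narf, chr11:72411714-72411963 (minus strand) for Smtnl2 and chr5:146844821-146845070 (plus strand) for Rasl11a.
Narf: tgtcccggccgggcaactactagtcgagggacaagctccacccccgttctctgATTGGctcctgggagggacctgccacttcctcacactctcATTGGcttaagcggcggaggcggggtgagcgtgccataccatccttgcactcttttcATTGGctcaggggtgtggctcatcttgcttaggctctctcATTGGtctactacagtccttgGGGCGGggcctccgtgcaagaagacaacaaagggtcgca
Smtnl2: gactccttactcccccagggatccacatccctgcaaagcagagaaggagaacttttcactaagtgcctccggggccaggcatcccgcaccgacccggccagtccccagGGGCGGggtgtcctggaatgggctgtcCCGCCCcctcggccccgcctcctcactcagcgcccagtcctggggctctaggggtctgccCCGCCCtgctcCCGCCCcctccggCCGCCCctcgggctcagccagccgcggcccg
Rasl11a: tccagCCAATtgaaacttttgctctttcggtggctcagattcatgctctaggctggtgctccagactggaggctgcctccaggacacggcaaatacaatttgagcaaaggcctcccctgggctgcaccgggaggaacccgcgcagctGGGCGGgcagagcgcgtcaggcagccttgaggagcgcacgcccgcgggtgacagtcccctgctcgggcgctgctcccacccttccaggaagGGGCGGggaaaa
Narf carries 4 copies of CCAAT, all in the reverse direction, a number that 0.835% of the 32817 promoters of the same length reach or pass. Smtnl2 carries 5 copies of GGGCGG, and 4.09% of promoters hold at least 4. This motif holds only G and C, and the Smtnl2 window is 72.0% G and C, against a median of 52.4% over all promoters. The share was not matched for base content. Over the 6 genes searched, which leave out Prr15l and Mkx, CCAAT was found in 4 (33.8% of all promoters). GGGCGG was found in 4 (32.7%) and GCGTG in 4 (28.1%). GGAATG was found only in Smtnl2 (12.6% of all promoters). No copy was found of TATAAA (12.4%), CACGTG (6.02%), ACGTG (16.6%), TGAGTCA (4.46%), GTAAACA (3.16%), AGGTCA (14.0%), CCGGAAGT (2.88%), AGATAA (9.99%) or TGACNNNGC (10.2%). Each motif was searched on both strands, every CACGTG also counts as an ACGTG, and Dhrs3 has 3 listed starts, of which the one with most copies was counted. No motif searched was shared by all 6 windows.

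Dhrs3, the retinal reductase gene (chr4:144892827-144928209, plus strand, 6 exons), stood at 57.0, 70.1 and 62.9 TPM in the wild-type libraries at rest and at 15.0, 15.5 and 19.6 TPM under flow. In the Ift140 knockout the static values were 26.2, 26.5 and 32.2 TPM and the flow values 10.4, 10.3 and 7.42 TPM. In the Dync2h1 knockout the static values were 31.2, 33.7 and 32.3 TPM and the flow values 7.53, 4.22 and 6.03 TPM. Both knockout lines lay below wild type in static and again in flow culture, without overlap. Flow and static differed by log2 values of -1.87, -1.50 and -2.30 (SE 0.17 each), and 26.4%, 33.2% and 18.3% of the static level was left. The Ift140 knockout kept 36.7% without the library that stood apart.

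Prr15l, the proline-rich gene (chr11:96928104-96937830, plus strand, 3 exons), held 12.3, 11.5 and 12.99 TPM in static wild-type libraries and 2.07, 3.09 and 3.89 TPM under flow. The Ift140 knockout held 7.61, 7.32 and 8.54 TPM static and 0.738, 1.15 and 1.41 TPM under flow. The Dync2h1 knockout held 10.4, 11.5 and 10.2 TPM static and 1.90, 3.60 and 1.80 TPM under flow. The 14.1% left in the Ift140 knockout was the smallest share of any gene and line here, and 12.1% was left without the library that stood apart. Wild type kept 24.6% and the Dync2h1 knockout 22.8%, and the log2 differences were -1.75, -2.08 and -1.81 (SE 0.20 each). Prr15l overlaps D030028A08Rik on the same strand, so reads of the pair may not be separable.

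Mab21l3, the Mab-21 family gene (chr3:101813076-101848959, minus strand, 7 exons), was the least abundant of the 8 in static wild-type cells. Its wild-type values were 6.92, 6.51 and 8.18 TPM static and 3.00, 3.67 and 1.70 TPM under flow. The Ift140 knockout held 4.62, 6.23 and 6.98 TPM static and 2.58, 2.56 and 1.44 TPM under flow. The Dync2h1 knockout held 11.9, 16.8 and 15.1 TPM static and 3.68, 2.85 and 3.31 TPM under flow. The Dync2h1 knockout was thus highest at rest, while under flow its libraries overlapped with wild type. As log2 differences these were -1.15, -1.13 and -1.86 (SE 0.21 each), with 38.7%, 36.9% and 22.4% of the static level left, and 43.3% in the Ift140 knockout without the library that stood apart. The rank moved from 61 in wild type and in the Ift140 knockout to 20 in the Dync2h1 knockout.

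Mkx, the TALE homeobox gene (chr18:6934518-7004780, minus strand, 7 exons), stood at 21.1, 15.7 and 19.0 TPM in the wild-type libraries at rest and at 5.25, 5.41 and 7.39 TPM under flow. In the Ift140 knockout it stood at 12.6, 11.02 and 12.7 TPM static and at 8.87, 7.47 and 4.47 TPM under flow. In the Dync2h1 knockout the static values were 19.8, 16.4 and 12.5 TPM and the flow values 7.10, 6.76 and 6.50 TPM. Under flow the 3 lines overlapped, and the Ift140 knockout kept the largest share of any gene and line here, 57.2%, or 67.4% without the library that stood apart. Wild type kept 32.3% and the Dync2h1 knockout 41.9%. The log2 differences were -1.49 in wild type, -0.77 in the Ift140 knockout (-0.52 without that library) and -1.12 in the Dync2h1 knockout (SE 0.20 each with all libraries). The ranks were 23, 214 and 82. The gene overlaps AC148004.2 on the same strand.

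**Figure D2:**
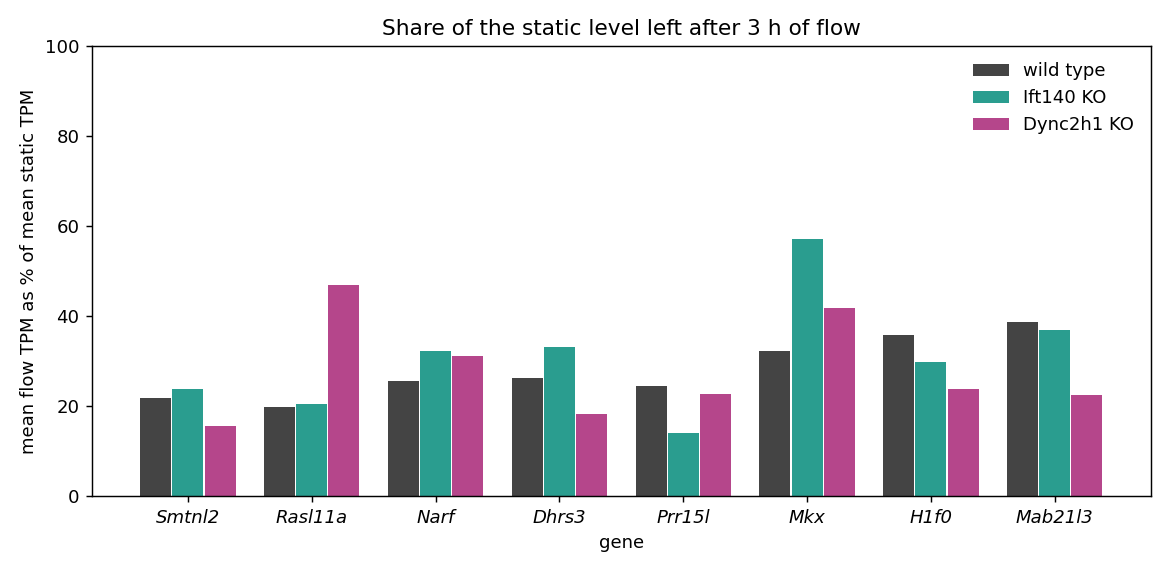
Mean flow level as a percentage of the mean static level for each gene (axis from 0 to 100%) in wild type, the Ift140 knockout and the Dync2h1 knockout; bars are ratios of means of 3 libraries and carry no error bar. Rasl11a in the Dync2h1 knockout (46.9%) and Mkx in the Ift140 knockout (57.2%) stand above the other bars.

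Differences between lines in the log2 flow difference come from the contrasts that chose the genes, so they are given for all 8 genes as a description, with 95% intervals and no test. The intervals are not adjusted for the number of genes, so whether one holds 0 is not a call. Against wild type, the Ift140 knockout gave 0.72 for Mkx (interval 0.12 to 1.32), -0.26 for H1f0 (-0.51 to -0.00459), and -0.33 to 0.36 for the other 6 genes, whose intervals held 0. The Dync2h1 knockout against wild type gave 1.21 for Rasl11a (0.70 to 1.73), -0.57 for H1f0 (-0.82 to -0.32), -0.71 for Mab21l3 (-1.35 to -0.07), and -0.44 to 0.36 for the other 5 genes, whose intervals held 0. Between the knockouts, the Dync2h1 line differed from the Ift140 line by 1.36 for Rasl11a, -0.79 for Dhrs3, -0.73 for Mab21l3, -0.53 for Smtnl2 and -0.32 for H1f0. The intervals of Narf, Prr15l and Mkx held 0 there, with values of 0.03, 0.28 and -0.36. A positive value stands for a smaller drop in the knockout line and a negative value for a larger one. Both knockout lines are set against the same wild-type libraries.

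Whether the lines differed in the level of these genes was tested on the mean of static and flow. In this balanced layout that mean is independent of the flow contrasts that chose the genes only where static and flow libraries spread alike. Flow groups of the 8 genes spread more widely (median coefficient of variation 21.5% against 7.998%), so the choice of genes may bear on these p-values. The Ift140 knockout was lower than wild type for Narf, Dhrs3, Prr15l and H1f0 and higher for Smtnl2 and Rasl11a (limma, adjusted p under 0.05 over all genes). That makes 4 lower and 2 higher of 8, where 15.2% of all genes tested were lower and 14.8% higher. The Dync2h1 knockout was lower for Rasl11a, Dhrs3 and H1f0 and higher for Mab21l3, 3 lower and 1 higher of 8, where 20.1% of all genes were lower and 21.4% higher. With the deposited TPM in place of rescaled TPM, the split over all genes in this comparison turned from 3578 higher and 3366 lower to 2723 higher and 3814 lower. Between the knockouts, the Dync2h1 line was lower for Smtnl2 and Rasl11a and higher for Prr15l and Mab21l3, 2 in each direction, with 20.6% of all genes lower and 22% higher. The same change of scaling turned the split over all genes between the knockouts from 3671 higher and 3440 lower to 2363 higher and 4162 lower. The 8 genes had median differences of -0.23, -0.23 and 0.07, against 0.0073, 0.0013 and 0.0042 over all genes tested.

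Rasl11a had by far the largest difference between the knockouts. Against wild type Rasl11a and Dhrs3 differed most, with Rasl11a just ahead for the Ift140 knockout and Dhrs3 just ahead for the Dync2h1 knockout. The mean log2 level of Rasl11a was 0.97 higher in the Ift140 knockout than in wild type (SE 0.12, adjusted p = 2.27e-05). It fell by 1.12 from wild type to the Dync2h1 knockout (SE 0.12, adjusted p = 2.24e-06). The Dync2h1 knockout differed from the Ift140 knockout by -2.09 (adjusted p = 2.52e-09). At rest the mean TPM was 2.13-fold higher in the Ift140 knockout than in wild type and 4.12-fold lower in the Dync2h1 knockout. Static libraries of either knockout did not overlap with those of wild type. From wild type to the Dync2h1 knockout, the log2 difference was -1.73 static and -0.51 under flow, without overlap in either. That difference in the mean thus lies mostly in the static libraries, whose level enters the drop that chose the gene. The retinal reductase gene Dhrs3 was lower in both knockouts, with differences of -0.95 (SE 0.12, adjusted p = 2.06e-05) for Ift140 and -1.16 (adjusted p = 1.27e-06) for Dync2h1. The static means of Dhrs3 were 2.24-fold and 1.95-fold lower than in wild type. Between the knockouts Dhrs3 did not pass, at -0.20 with an interval of -0.45 to 0.05 (adjusted p = 0.184).

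Mab21l3 was higher in the Dync2h1 knockout than in wild type by 0.56 (SE 0.15, adjusted p = 0.00646) and than in the Ift140 knockout by 0.80 (adjusted p = 0.000492). Its static mean in the Dync2h1 knockout was 2.03-fold that of wild type, while the flow libraries of both lines overlapped. The log2 differences were 0.92 static and 0.21 under flow. The difference in the mean thus lies mostly in the static libraries, whose level enters the drop that chose the gene. The Ift140 knockout minus wild-type difference of -0.24 did not pass (interval -0.56 to 0.08, adjusted p = 0.247). Prr15l was lower in the Ift140 knockout, with a difference of -0.76 from wild type (SE 0.14, adjusted p = 0.000726), and 0.55 higher in the Dync2h1 than in the Ift140 knockout (adjusted p = 0.00495). Its difference between the Dync2h1 knockout and wild type, -0.21, did not pass (interval -0.50 to 0.09, adjusted p = 0.251), but did without flow replicate 2 of that knockout, at -0.32 (adjusted p = 0.0472). Smtnl2 was higher in the Ift140 knockout by 0.46 (SE 0.12, adjusted p = 0.00900), and the Dync2h1 knockout lay -0.56 from the Ift140 knockout (adjusted p = 0.00139). Against wild type, Smtnl2 in the Dync2h1 knockout gave -0.10 (interval -0.36 to 0.15, adjusted p = 0.529).

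Narf was lower in the Ift140 knockout, with a difference of -0.55 (SE 0.14, adjusted p = 0.00975), or -0.37 without the library that stood apart (adjusted p = 0.00176). In the Dync2h1 knockout its difference of -0.35 from wild type missed the threshold (adjusted p = 0.0628), but passed with the deposited scaling (adjusted p = 0.0150), with 5 TPM added before the logarithm (0.0339) and when the fit held just the libraries of that comparison (0.00247). H1f0 was lower in both knockouts, with differences of -0.21 for Ift140 (SE 0.06, adjusted p = 0.0156) and -0.26 for Dync2h1 (adjusted p = 0.00242), and with the deposited scaling its Ift140 call was lost (adjusted p = 0.0977). At rest the H1f0 libraries of either knockout overlapped with those of wild type, with log2 differences of -0.08 and 0.03, so the difference in the mean lies in the flow libraries, at -0.33 and -0.54, whose drop chose the gene. For Mkx no line difference passed. It gave -0.21 for the Ift140 knockout (interval -0.51 to 0.09, adjusted p = 0.278) and -0.02 for the Dync2h1 knockout (interval -0.32 to 0.28, adjusted p = 0.929), both against wild type. Without the library that stood apart, the 8 genes kept their direction and their side of the threshold in both comparisons that use it. The layout of that fit is no longer balanced.

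**Figure D3:**
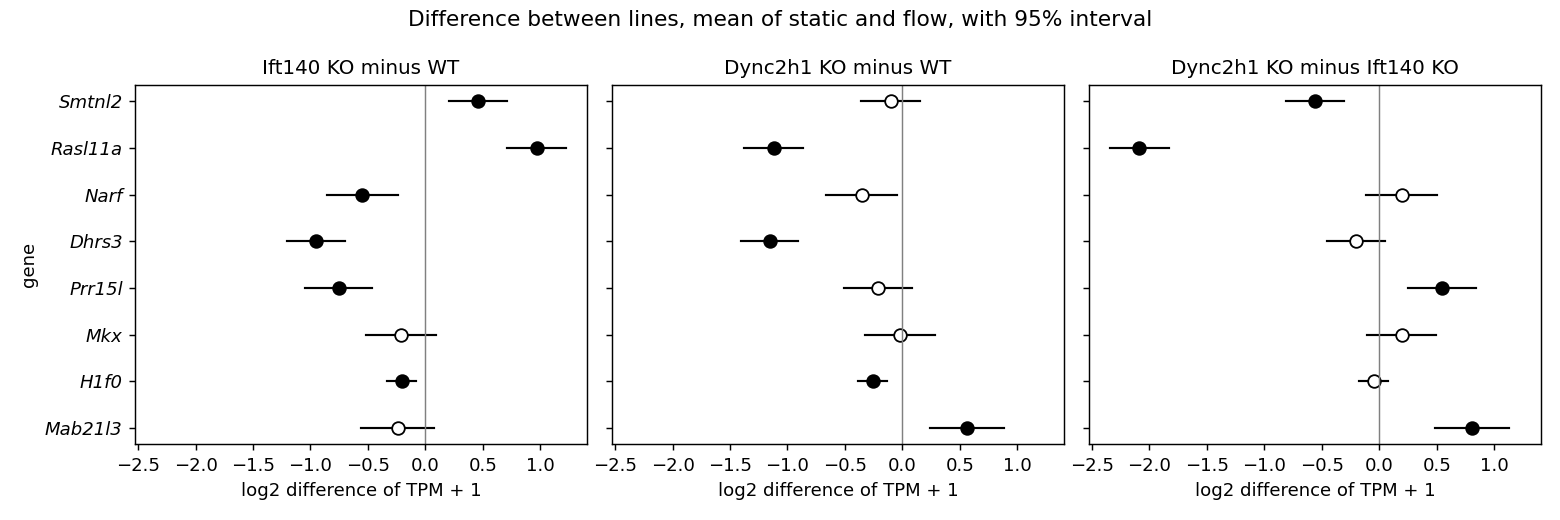
Difference in mean log2(TPM + 1) over static and flow for each gene in the 3 comparisons of lines, with lines for the 95% interval. Filled symbols passed an adjusted p of 0.05 and open symbols did not; Rasl11a reaches -2.09 between the knockouts and Mkx has an open symbol in all 3 panels.

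Relatives of the 8 genes and partners in their pathways were followed under flow to see whether they moved too. Of 79 listed genes, 54 were expressed well enough to be tested. In wild type 18 were lower under flow and 6 higher, where 10.3% of all genes tested were lower and 10.2% higher. In the Ift140 knockout 17 were lower and 4 higher, with 8.27% and 9.21% of all genes. The 17 became 13 without the library that stood apart. The 4 became 1 without static replicate 2 and 2 without static replicate 3 of that line, and the 17 became 6 when the fit held its 6 libraries alone. In the Dync2h1 knockout 16 were lower and 8 higher, with 8.15% and 10.8% of all genes. With the deposited scaling the counts in the Dync2h1 knockout were 18 lower and 5 higher, and the split over all genes turned from 1810 higher and 1363 lower to 830 higher and 1761 lower. The median change of the 54 was -0.15 in wild type, -0.03 in the Ift140 knockout and -0.09 in the Dync2h1 knockout. These lists were drawn up with earlier results of these data known.

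Among small GTPases of the RASL, RERG and DIRAS kind, 3 of 10 listed genes were tested and all 3 fell in each line. Rasl11b, the closest relative of Rasl11a by name, went from a mean of 9.27 to 3.07 TPM in wild type, from 16.5 to 6.59 TPM in the Ift140 knockout and from 6.91 to 1.35 TPM in the Dync2h1 knockout. Its log2 changes were -1.33, -1.21 and -1.75 (SE 0.17 each, limma adjusted p = 4.71e-05, 0.000153 and 3.61e-06). Rasl12 changed by -1.23, -1.10 and -0.76 (SE 0.23 each), from 10.8 to 4.10 TPM in wild type. Its call in the Dync2h1 knockout (adjusted p = 0.0320), where the static mean was 1.22 TPM, was lost without static replicate 1 or 3 or flow replicate 2 or 3 (adjusted p = 0.0795 to 0.125). Rasl10a changed by -0.53, -0.45 and -0.56 (SE 0.10 each). Prr15, the relative of Prr15l, fell in all lines, with log2 changes of -1.41, -1.36 and -1.22 (SE 0.14 each, adjusted p = 3.13e-06, 6.05e-06 and 1.58e-05). Its means went from 9.11 to 2.79 TPM in wild type, from 6.39 to 1.88 TPM in the Ift140 knockout and from 2.14 to 0.343 TPM in the Dync2h1 knockout. The only other smoothelin tested, Smtn, moved the other way from Smtnl2: it rose by 0.49 in wild type (adjusted p = 0.00286), while 0.22 in the Dync2h1 knockout did not pass (adjusted p = 0.149). Smtn also passed in the Ift140 knockout at 0.33 (adjusted p = 0.0366), a call lost without flow replicate 3 or any of the 3 static replicates (adjusted p = 0.0619 to 0.131). The relatives of Mab21l3, Mab21l1 and Mab21l2, reached at most 0.36 TPM in any library and were not tested.

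Of 9 other linker histone genes 6 were tested, and 4, 4 and 3 of them fell in wild type, the Ift140 knockout and the Dync2h1 knockout, with none higher. With a library left out the counts were 3 to 4, 2 to 4 and 2 to 3: the 4 of the Ift140 knockout became 2 without flow replicate 3, static replicate 1 or static replicate 2, and the 3 of the Dync2h1 knockout stayed only without flow replicate 2. Hist1h1c, a somatic H1 gene of the histone cluster, changed by -0.64, -0.48 and -0.35 (SE 0.07 each), from 274 to 176 TPM in wild type. Hist1h1d changed by -0.69, -0.57 and -0.35 (SE 0.08 each). Hist1h1a changed by -0.60 in wild type, while its -0.05 in the Dync2h1 knockout did not pass (adjusted p = 0.765). The changes of these genes were smaller than those of H1f0 in the same lines, a difference that was not tested. Linker histone genes have similar coding sequences, so how shared reads were divided between them makes their levels uncertain. Among 14 genes of the nuclear lamina and of prelamin A processing, 2 rose and 2 fell in wild type and in the Ift140 knockout, and 5 rose and 1 fell in the Dync2h1 knockout. The 2 that rose in wild type, Lmna and Banf1, both missed the threshold without static replicate 3 or any 1 of the flow replicates. Without flow replicate 3 another gene of the list passed as higher. Lmna alone passed as higher without static replicate 1, and Banf1 alone without static replicate 2. Without static replicate 1 or flow replicate 1 a single gene fell in wild type. In the Ift140 knockout none rose without static replicate 2, and 1 without static replicate 3 or flow replicate 2. Lmna itself, the source of prelamin A, rose by 0.53 in the Dync2h1 knockout, from 420 to 607 TPM. Tmpo, a lamina-associated protein gene, changed by -0.30, -0.35 and -0.35 (SE 0.06 each).

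In the retinoid list 15 of 24 genes were tested: 2 rose and 3 fell in wild type, none rose and 3 fell in the Ift140 knockout, and 2 rose and 1 fell in the Dync2h1 knockout. That 1 gene, Rdh14, missed the threshold with any 1 of the 6 libraries of the line left out (adjusted p = 0.0532 to 0.0758). The 3 of the Ift140 knockout became 1 without static replicate 1, static replicate 3 or flow replicate 3 and 2 without static replicate 2 or flow replicate 2, and the 3 of wild type became 2 without any 1 library other than flow replicate 3. Rarb, a retinoic acid receptor gene, changed by -1.01 in wild type (SE 0.17, adjusted p = 0.000479), from 3.57 to 1.29 TPM. In the knockout lines it was at 0.154 to 0.251 TPM in all group means, too low to show a drop. Rdh10, which makes retinal from retinol and so works against Dhrs3, rose by 0.53 in wild type (SE 0.07, adjusted p = 9.02e-05), from 49.8 to 72.3 TPM. Aldh1a3, which makes retinoic acid from retinal, rose by 0.86 in wild type (adjusted p = 0.00549) and by 1.10 in the Dync2h1 knockout, and was at -0.0037 in the Ift140 knockout (adjusted p = 0.994). Among the TALE homeobox genes 14 of 17 were tested, with 5, 4 and 7 lower and 1 higher in each line. With a library left out the lower counts were 5 to 6, 3 to 4 and 5 to 7. The 7 of the Dync2h1 knockout stayed only without static replicate 1, and the 4 of the Ift140 knockout became 3 without static replicate 3. Meis1 changed by -0.72, -1.11 and -0.65 (SE 0.15 each) and Pbx2 changed by -0.67, -0.47 and -0.62 (SE 0.11 each), the Ift140 call of Pbx2 being lost without static replicate 3 (adjusted p = 0.05001). Irx3 changed by -1.04 in wild type and by -0.88 in the Ift140 knockout, and its -0.49 in the Dync2h1 knockout passed with all libraries but not without flow replicate 1, flow replicate 2 or static replicate 2 (adjusted p = 0.0558 to 0.0610). The single gene that rose, Tgif1, a repressor of TGF-beta and retinoid signalling, gained 1.42, 0.84 and 0.95 (SE 0.10 each, adjusted p = 7.30e-08, 2.71e-05 and 6.19e-06), from 21.8 to 59.5 TPM in wild type.

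**Figure D4:**
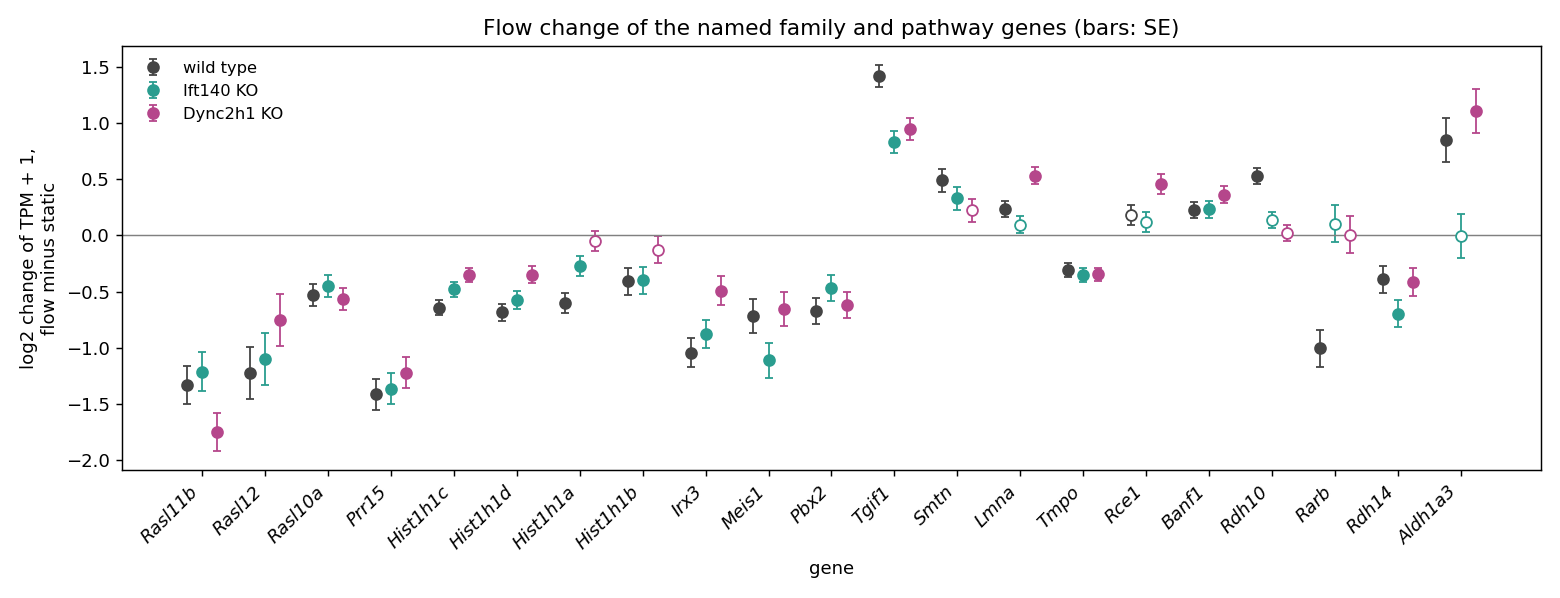
Log2 change under flow in the 3 lines for relatives and pathway partners of the 8 genes; error bars are standard errors, filled symbols passed an adjusted p of 0.05 and open symbols did not. Rasl11b and Prr15 lie between -1.75 and -1.21 in all lines, and Tgif1 is the gene farthest above 0, at 1.42 in wild type.

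The genes whose levels followed each of the 8 most closely over the 18 libraries were sought among 9723 genes with a mean of at least 5 TPM, by Pearson's r of log2(TPM + 1). Since all libraries share the contrast of flow and static and the 3 lines, a high r is a description of these 18 points only. Smtnl2 was nearest to Sik1, a salt-inducible kinase gene (r = 0.975), Ankrd37 (0.974) and Foxj1, the regulator of motile cilia (0.969). H1f0 was nearest to Epn3 (0.979), Mvd of cholesterol synthesis (0.976) and Crocc, which encodes the ciliary rootlet protein (0.973). Narf was nearest to the mitosis genes Mastl (0.974), Kif2c (0.970) and the DNA topoisomerase gene Top2a (0.966). Mkx was nearest to Chek2 (0.957), Narf itself (0.956) and Nusap1 (0.955), and was the only one of the 8 with another of them among its nearest 3. Prr15l was nearest to Crocc (0.974), Slain1 (0.967) and Ehf (0.966), and Dhrs3 to Camk2n1 (0.965), Tysnd1 (0.962) and Sesn1 (0.961). The lowest values belonged to Rasl11a, with Sdf2l1 (0.943), Wdr90 (0.936) and Ehmt2 (0.935), and to Mab21l3, with Zfp692 (0.945), Pkn3 (0.917) and Snap47 (0.916).

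The 8 genes lie on 6 chromosomes, with Smtnl2, Narf and Prr15l on chromosome 11 far from each other. Of the 16 nearest tested protein-coding neighbours, 1 on each side, 2 were lower and 1 higher under flow in wild type, 3 lower and 2 higher in the Ift140 knockout and 2 lower and 0 higher in the Dync2h1 knockout. Of all genes tested 10.3% were lower and 10.2% higher in wild type, 8.27% and 9.21% in the Ift140 knockout and 8.15% and 10.8% in the Dync2h1 knockout. Gcat, named after its values were seen because it lies 370 bases from H1f0, changed by -0.37 in wild type (adjusted p = 0.0198) and -0.31 in the Ift140 knockout (adjusted p = 0.0491), against -1.47 and -1.73 for H1f0, and its -0.13 in the Dync2h1 knockout did not pass (adjusted p = 0.451). The medians of the 16 neighbours were -0.07, 0.05 and 0.03. The 3′ untranslated regions ranged from 251 bases in Rasl11a to 2982 bases in Prr15l, around a median of 1017 bases over 10984 tested coding genes. The pentamer ATTTA, the core of AU-rich elements found in many short-lived mRNAs, occurred 4 times in Smtnl2, 5 times in Narf, 4 times in Prr15l, 3 times in Mkx and 2 times in Mab21l3. It was absent from Rasl11a, Dhrs3 and H1f0, and 68.7% of all coding genes had at least 1. Per kilobase, Smtnl2 had 3.41 and the other 4 genes 1.03 to 1.70, against a median of 1.30 over coding genes.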

How the data were processed

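Total RNA of 18 libraries, 3 per group, was measured. The deposited values are TPM (entered as another unit, since each file opens with a row that repeats the library total and was left out), and the remaining rows sum to 1000000, within 1. Per the submitters' processing notes, FastQC 0.11.5, Bowtie2 2.1.0 and RSEM 1.2.31 were used with builds mm10 and GRCm38.p5; settings, strand use and annotation release are not given in the sources used here. TPM keeps no depth, and the counting error behind a value is unknown.

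From these values, libraries were rescaled by a trimmed mean of log ratios (30% of ratios and 5% of abundances trimmed, factors 0.8897 to 1.129), and a gene was kept where 3 or more libraries reached 1 TPM. limma 3.58.1 in R 4.3.3 was fitted to log2(TPM + 1) with 6 group means, 12 residual degrees of freedom and a mean-variance trend, after being tested on simulated data. A gene passed at a Benjamini-Hochberg adjusted p under 0.05 over 16718 genes. The design had foreseen a count test, which TPM do not allow. The smallest p of an exact permutation test with 3 libraries a side is 0.1. Fold changes on this scale understate those of low genes.

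The 8 genes and the lists were chosen with earlier results of these data known. Named relatives are at most 4 per list, those past the threshold in at least 1 line with the smallest p. Nearest genes by correlation leave out predicted genes. Positions are from GENCODE vM21 and promoters from RefSeq. Promoters were searched for 6 of the 8 genes, all but Prr15l and Mkx. Mkx was left out of the search by name, so its absence is no result. Alternatives changed the scaling, the filter, the added value, the trend, the libraries fitted and the replicate block. Values of some marker and overlapping genes are not reported here.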

Additional observations from a re-analysis of the deposited data

Results flagged for a closer look

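The flow change of Rdh10, the retinol dehydrogenase gene that opposes Dhrs3, differed between the Dync2h1 knockout and wild type by a test of the difference itself. The log2 change was 0.53 in wild type and 0.02 in the Dync2h1 knockout, a difference of -0.50 (SE 0.10, limma adjusted p = 0.0411). Mean levels went from 49.8 to 72.3 TPM in wild type and from 40.7 to 41.5 TPM in the Dync2h1 knockout. In the Ift140 knockout the change was 0.14, and its difference of -0.39 from wild type did not pass (adjusted p = 0.219). The difference between the knockouts, -0.11, did not pass either (adjusted p = 0.761). The result can thus be called neither particular to the Dync2h1 line nor shared by both knockouts. This test of the difference was not repeated under other settings. Of all 16718 genes tested, 81, or 0.485%, differed between the Dync2h1 knockout and wild type in this way.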

How the results depend on the processing

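The replicate numbers were not treated as pairs. Deviations from the group mean correlated at -0.040 to 0.104 between static and flow libraries of the same line and number (median 0.033). Between libraries of different groups and numbers they correlated at -0.209 to 0.181 (median -0.0096). With 3 libraries per group these values cannot show whether the libraries were paired. A fit with the replicate block left the median log2 flow change of the 8 genes at -1.81, -1.69 and -1.83 and changed no call on their line differences, while relatives higher in the Ift140 knockout went from 4 to 2. With 5 TPM added, the median flow change was -1.31 in wild type, -1.30 in the Ift140 knockout and -1.32 in the Dync2h1 knockout, and with 0.1 TPM it was -2.09 in the last. Relatives higher in the Ift140 knockout numbered 1 with deposited scaling, quantile normalization, no trend or only the groups compared, 2 without the filter, and 1 (without static replicate 2) to 4 with a library left out. Relatives lower there numbered 6 with only the groups compared, and relatives higher in the Dync2h1 knockout 5 with deposited scaling.

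Signs turned only for changes near 0. Rdh10 in the Dync2h1 knockout gave -0.0927 with deposited scaling, -0.0397 with quantile normalization and -0.0174 to 0.0752 with a library left out. Rarb there gave -0.00494 with deposited scaling and -0.0571 to 0.0644 with a library left out, and in the Ift140 knockout -0.0132 to 0.200. Aldh1a3 in the Ift140 knockout gave -0.120 to 0.0716. The Mkx difference between the Dync2h1 knockout and wild type gave 0.0183 with quantile normalization and -0.0926 to 0.0632 with a library left out. The cause was not tested. For the line differences of the 8 genes, 284 of the values with a library left out and 211 under other settings kept direction and side of the threshold. TPM gives no depth, so counting error is unknown, and low levels such as Rarb in the knockout lines cannot show a drop.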
